A study of Mus musculus with 10 samples.

Results

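The genes described here are 33 members of the cholesterol and fatty acid synthesis pathways, out of 19025 genes measured by RNA sequencing in mouse cells. Members were looked up by symbol in all 10 libraries, and where a symbol had several rows the highest was taken. Of 34 genes named, 1, Hmgcs1, is not analysed here because no row carried that name. The 33 comprised 17 sterol enzymes, 10 fatty acid enzymes and 6 genes that regulate the sterol response or carry sterol. All cells came from the C57BL/6 strain, and each of 5 groups had 2 libraries. Embryonic stem (ES) cells were the B6N-22 line, grown with serum and leukemia inhibitory factor on a feeder layer of mouse embryonic fibroblasts that mitomycin C had stopped from dividing. B cells (B220) and CD4 T cells were taken from the spleens of mice aged 6 to 8 weeks with magnetic beads, at a stated purity over 98%. Th2 cells were splenic CD4 T cells cultured for 5 days with interleukin-2 at 15 ng/ml and interleukin-4 at 10 ng/ml. The last group was the same culture with 10 nM trichostatin A (TSA), an inhibitor of histone deacetylases, added on day 2 and left for 3 days. TSA thus reached cells already in culture, and resting cells with TSA are not analysed here.

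Cholesterol is built from acetyl-CoA through mevalonate, isoprenoid phosphates, squalene and lanosterol, and a chain of sterol-modifying enzymes finishes it. Fatty acids are built from the same acetyl-CoA, which is carboxylated, polymerised into palmitate and then elongated and desaturated. Both branches are under transcription factors of the SREBP family, encoded by Srebf1 and Srebf2, which stay in the endoplasmic reticulum bound to Scap while sterol is plentiful and Insig proteins hold the complex back. Lymphocytes that leave rest and begin to divide need new membrane, and these pathways are known for being switched on at that point.

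Levels are given in FPKM, fragments mapped to a gene scaled by its transcript length and by the library's total, as deposited; because of the scaling by length they can be compared between genes. The sequencing depth is unknown, so no counting interval can be given. The 2 libraries of ES cells, of B cells and of CD4 T cells differed by little, with a scatter that shrank with abundance much as counting noise does, and were counted as 1 sample per group. Among genes of at least 10 FPKM, their log2 ratios had an SD of 0.04 to 0.05, against 0.31 in Th2 and 0.32 in Th2 with TSA. The depth that this scatter would imply varied 1.51-fold to 1.66-fold over 4 bins of abundance, against 8.84-fold and 12.2-fold in the Th2 groups. The labels number the libraries as experiments but leave unstated whether they were separate animals or cultures. P-values therefore reflect only how far these libraries scatter, which may be technical. The Th2 files and the other files were also written differently. All 1321 symbols with several non-zero rows had identical values in those rows in the Th2 files, against 46 of 1426 in the others, so the kind of file and the kind of cell cannot be told apart when resting and Th2 cells are compared.

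Marker genes were checked against the labels. All 6 T cell markers reached at least 1 FPKM in the CD4 T, Th2 and TSA groups, with summed levels of 1925 to 1934 FPKM in CD4 T, 1759 to 1875 in Th2 and 1511 to 1671 with TSA. The 5 Th2 markers summed to 315 to 408 FPKM in Th2, 445 to 629 with TSA and 26.3 to 26.6 in CD4 T cells. The higher sum with TSA came from Il10 (mean 401 FPKM against 136.5), while the means of Gata3, Il4, Il5 and Il13 were 55.1%, 78.0%, 13.1% and 62.3% of untreated. All 6 B cell markers lay higher in both TSA libraries than in both untreated Th2 libraries, at 15.5 to 40.5 FPKM in sum against 4.39 to 6.31; their part in the TSA results was not tested. The ES libraries held fibroblast transcripts at 506 to 512 FPKM in sum, against 6.44 at most elsewhere. The CD4 T libraries carried all 6 B cell markers at a median of 5.70% of their B cell level. They also held the 6 macrophage markers at 355 FPKM in sum, against 99.5 to 99.7 in B cells, 9.13 in Th2, where C1qa and C1qb were at 0, and 2.66 to 3.07 with TSA, where C1qb was at 0. In bulk samples, fewer cells of a type and less RNA per cell cannot be told apart.

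Across the 5 groups, 25 of the 33 genes had their highest mean level in untreated Th2 cells. ES cells were highest for 3 genes, Fdft1, Acly and Elovl6, and B cells for 3, Srebf2, Insig2 and Scd1. CD4 T cells were highest for Scap alone and TSA-treated Th2 cells for Tm7sf2 alone. The lowest level was in B cells for 19 genes, in ES cells for 5, in CD4 T cells for 5, with TSA for 3 and in Th2 for 1. Among the sterol enzymes this order was nearly uniform, with 15 of 17 highest in Th2 and 12 of 17 lowest in B cells. The fatty acid enzymes were more mixed, with 7 of 10 highest in Th2 and 5 of 10 lowest in B cells.

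**Figure D1:**
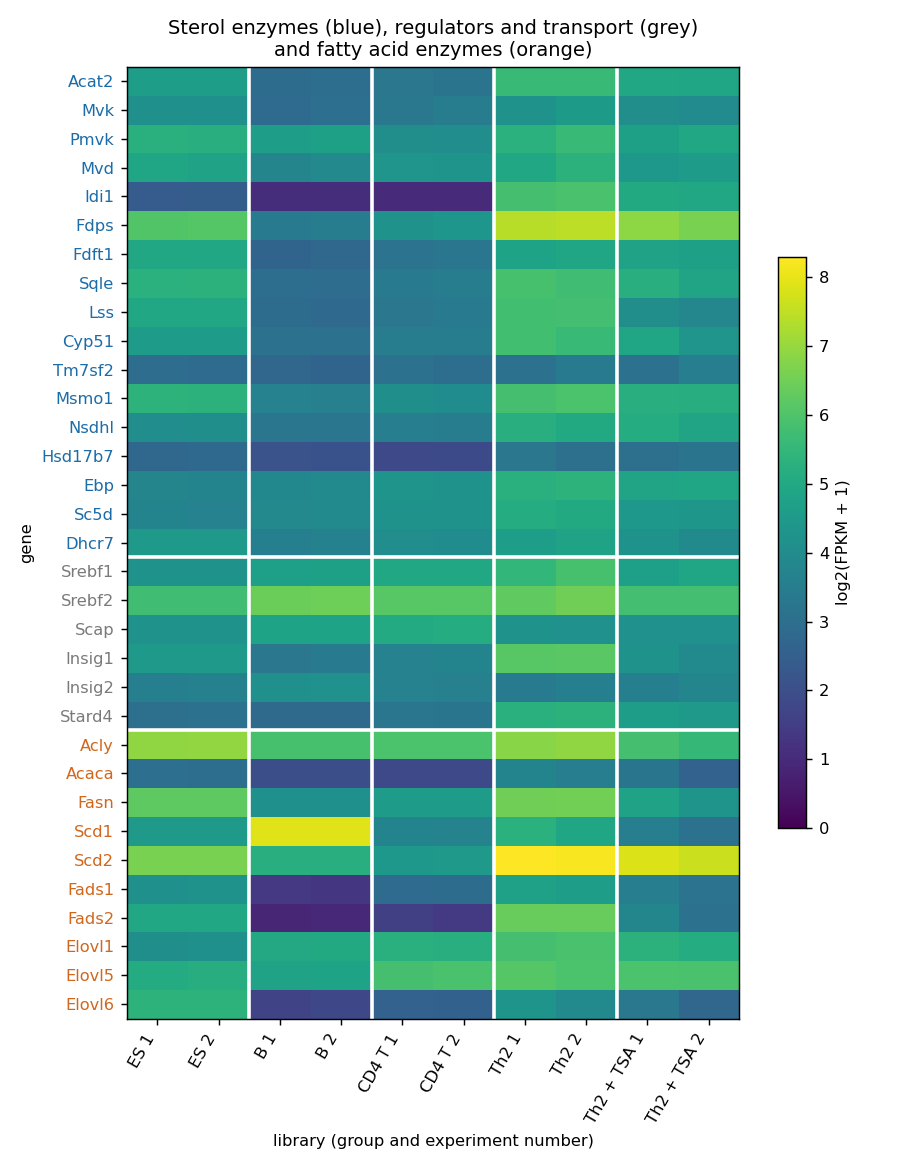
Heat map of log2(FPKM + 1) for the 33 genes (rows, ordered along each pathway) in the 10 libraries (columns, 2 for each group), with white lines between groups and between classes of gene. The mean of the 2 untreated Th2 libraries is the highest of the groups in 25 rows, and Scd1 stands out in the 2 B cell columns at 235 and 236 FPKM.

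The 3 groups that were not Th2 cultures were compared by size only, because each had 1 independent sample; a gene was set apart when it differed by at least 1 on the log2(FPKM + 1) scale and reached 5 FPKM in the higher group. Both enzyme branches had lower medians in resting lymphocytes than in ES cells. In CD4 T cells 14 of 33 genes were lower and 1, Elovl1, was higher, where 23.3% and 19.3% of the 12907 genes examined were. In B cells 16 were lower and 1, Scd1, was higher, against 25% and 17.5% of all genes. The median over the sterol enzymes was -1.07 for CD4 T and -1.22 for B cells, and over the fatty acid enzymes -1.23 and -1.22, while the medians over all genes were -0.16 and -0.30. The regulators and carrier ran above these, with medians of 0.28 and 0.505, and Srebf1, Srebf2 and Scap lay higher than in ES cells in both without reaching the rule. ES cells are a dividing line on feeders and the splenic cells were not cultured, so these differences carry culture and tissue of origin with them. The proliferation genes listed alongside, such as Mki67 and Top2a, were lower in CD4 T cells in 9 of 10 cases and in B cells in 10 of 10.

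In the fatty acid branch Fads2 and Elovl6 were farthest below ES cells in both lymphocytes. Fads2, the desaturase that starts the conversion of essential fatty acids to longer polyunsaturated ones, was at 30.2 and 30.2 FPKM in ES cells, 0.84 and 0.96 in B cells and 1.96 and 1.67 in CD4 T cells. Fads1, which acts later in the same conversion, was at 16.9 and 17.7 FPKM in ES cells, 1.59 and 1.46 in B cells and 6.46 and 6.67 in CD4 T cells. Elovl6, which elongates palmitate, was at 39.8 and 40.4 FPKM in ES cells, 2.28 and 2.46 in B cells and 5.06 and 5.02 in CD4 T cells. All 3 genes thus ran from ES cells down through CD4 T to B cells. In the sterol branch Fdps, Sqle and Fdft1 had log2 differences of -2.61, -2.34 and -2.25 in B cells and -1.775, -1.87 and -1.75 in CD4 T cells. Sqle, the squalene epoxidase, was at 38.7 and 39.3 FPKM in ES cells, 7.0 and 6.84 in B cells and 9.59 and 10.4 in CD4 T cells.

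B cells and CD4 T cells differed in 3 of the 33 genes by the same rule. Fads1 and Elovl5, an elongase of polyunsaturated chains, were higher in CD4 T cells, and Scd1 was lower; across all genes 6.63% were higher and 4.39% lower. Scd1, which makes monounsaturated fatty acids from saturated ones, was at 235 and 236 FPKM in B cells and 12.3 and 12.2 in CD4 T cells. It was also low in ES cells, at 21.1 and 20.8 FPKM, so that B cells stood apart from every other group. Its level in CD4 T cells was 5.20% of that in B cells, inside the range of 4.71% to 5.95% over the 6 B cell markers in the same libraries, and the part of B cell RNA in the CD4 T value was not tested. Its paralog Scd2 ran differently, at 36.1 and 36.7 FPKM in B cells, 20.7 and 20.9 in CD4 T cells and 97.0 and 96.9 in ES cells. The Scd1 and Scd2 transcripts share 3.03% of the 50-base words of Scd1, so most of each can be told from the other.

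The culture of CD4 T cells into Th2 cells was accompanied by higher levels in both branches. Of the 33 genes 27 rose and 1, Scap, fell, by limma with Benjamini-Hochberg adjustment over 12367 genes, while 16.9% of all those genes rose and 38.1% fell. The sterol enzymes rose in 16 of 17 cases with a median log2 fold change of 1.60, and the fatty acid enzymes in 9 of 10 with a median of 1.66. The median over all genes was -0.28. CD4 T cells enter this fit as 1 averaged sample, as ES cells do below, so the spread behind these p-values comes from the Th2 and TSA libraries alone and CD4 T cells are assumed to vary as they do. All 10 proliferation genes rose as well, with a median of 2.96, and the macrophage and B cell markers named above fell between these same groups; their part in the result was not tested. Leaving out 1 Th2 library left 12 or 13 of the 27 calls, with the 27 log2 fold changes still above 0. Under quantile normalization and median-ratio scaling the median of all genes moved up by 0.29 and 0.25, and 28 and 30 members rose; of all calls 49.5% and 45.7% were then rises, against 30.7%.

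The early mevalonate steps and the isoprenoid steps after them differed in size. Acat2, the cytosolic thiolase that supplies acetoacetyl-CoA, was at 8.84 and 8.17 FPKM in CD4 T and 46.6 and 46.6 in Th2 cells, a log2 fold change of 2.32 (SE 0.08, limma adjusted p = 0.00143). The kinases and the decarboxylase that turn mevalonate into isopentenyl diphosphate moved less: Mvk rose by 0.96, Pmvk by 1.38 and Mvd by 0.85 on the log2 scale. Idi1, the isomerase that converts isopentenyl diphosphate to its reactive isomer, was at 1.0 and 1.04 FPKM in CD4 T and 56.9 and 58.8 in Th2 cells (log2 fold change 4.86, SE 0.10, limma adjusted p = 0.00075). Fdps, which joins those units into farnesyl diphosphate, was at 18.0 and 19.3 FPKM before and 170 and 176 after (3.15, SE 0.16, limma adjusted p = 0.00264). Both libraries of each group lay far from those of the other for these 3 genes. Idi1 went from one of the lowest members in resting cells to a level beside the other sterol enzymes, and its ES cell level was 4.27 and 4.39 FPKM.

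From squalene onward the rises shrank toward the end of the pathway. The log2 fold change was 1.66 for the squalene synthase Fdft1, 2.37 for Sqle, 2.47 for the lanosterol synthase Lss and 2.20 for the lanosterol demethylase Cyp51. It was 1.83 for Msmo1, 1.60 for Nsdhl and 1.33 for Hsd17b7, which act together to remove methyl groups from the ring. The isomerase Ebp (1.04), the desaturase Sc5d (0.85) and the last reductase Dhcr7 (0.64, SE 0.16, limma adjusted p = 0.0454) had smaller rises. Lss illustrates the spread, at 8.69 and 9.41 FPKM in CD4 T and 53.7 and 55.5 in Th2 cells. The sterol reductase Tm7sf2 was the 1 enzyme of the branch that did not pass the test, at 7.82 and 6.95 FPKM in CD4 T and 7.69 and 9.80 in Th2 cells (limma adjusted p = 0.555). The calls on Mvk, Mvd, Cyp51, Nsdhl, Sc5d and Dhcr7 were lost when either Th2 library was left out, that on Hsd17b7 without the first, and those on Pmvk and Ebp without the second.

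In the fatty acid branch the desaturases Fads2 and Scd2 moved most. Fads2 was at 1.96 and 1.67 FPKM in CD4 T and 81.2 and 80.9 in Th2 cells (log2 fold change 4.87, SE 0.35, limma adjusted p = 0.00461), and Scd2 at 20.7 and 20.9 against 313 and 295 (3.81, SE 0.13, limma adjusted p = 0.00146). Scd2 was the most abundant of all members in Th2 cells. Fads1 rose by 1.78 and Scd1 by 1.38 on the log2 scale. The core synthetic enzymes rose too, with Acly, which splits citrate into cytosolic acetyl-CoA, at 0.92, the acetyl-CoA carboxylase Acaca at 1.81 and the fatty acid synthase Fasn at 1.92. Fasn was at 23.1 and 23.2 FPKM in CD4 T and 89.7 and 91.5 in Th2 cells (SE 0.25, limma adjusted p = 0.0125). Of the elongases Elovl6 rose by 1.53 and Elovl1, which makes very long chains, by 0.63. Elovl5 did not pass the test, at 57.3 and 58.7 FPKM in CD4 T and 67.3 and 61.2 in Th2 cells (limma adjusted p = 0.274). The calls on Acly, Acaca, Fasn, Scd1, Fads1, Elovl1 and Elovl6 were lost when either Th2 library was left out, and those on Fads2 and Scd2 were kept.

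The regulators split. Insig1, which retains the SREBP complex and is itself a sterol-responsive gene, was at 11.8 and 12.4 FPKM in CD4 T and 69.5 and 70.7 in Th2 cells (log2 fold change 2.44, SE 0.17, limma adjusted p = 0.00436). Stard4, a soluble sterol carrier, was at 8.48 and 8.41 FPKM before and 37.2 and 39.3 after (2.05, SE 0.12, limma adjusted p = 0.00316). Scap, the escort of the SREBPs, was at 32.9 and 33.8 FPKM in CD4 T and 17.8 and 17.5 in Th2 cells and fell by 0.88 on the log2 scale (SE 0.07, limma adjusted p = 0.00577). The transcription factors themselves did not pass the test. Srebf2, the factor tied to sterol genes, was at 70.0 and 70.3 FPKM in CD4 T and 76.4 and 89.8 in Th2 cells (limma adjusted p = 0.211), and Srebf1, the one tied to fatty acid genes, at 29.7 and 30.3 against 44.4 and 57.5 (limma adjusted p = 0.0667). Srebf1 passed under quantile normalization (limma adjusted p = 0.0307), and both passed under median-ratio scaling (0.0312 for Srebf1 and 0.0386 for Srebf2 in limma). Insig2, the second retention protein, was at 11.8 and 11.2 FPKM before and 9.60 and 10.99 after (limma adjusted p = 0.487), and its direction was the opposite under both scalings. Scap lost its call when either Th2 library was left out.

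With TSA, most members stood below their untreated Th2 level, at a median of 43.8% of it over the fatty acid enzymes and 63.2% over the sterol enzymes. Of the 33 genes 13 fell and 0 rose, by limma with adjustment over 12907 genes, of which 4.14% fell and 9.26% rose. At an unadjusted limma p below 0.05, 0 members were higher and 24 lower. The share of all genes at that looser threshold is not given here, so these counts have no background beside them. The fatty acid enzymes fell in 6 of 10 cases (median log2 fold change -1.14), the sterol enzymes in 5 of 17 (median -0.63) and the regulators and carrier in 2 of 6, while the median over all genes was 0.02. The difference between the branches was not tested. Both TSA libraries lay below both untreated ones for 29 of the 33 genes, as for 27.1% of all genes, and above them for 1, Insig2, as for 36.7% of all genes. The calls rest on 2 libraries a side: when either untreated library or the second TSA library was left out, 0 of the 13 passed, and without the first TSA library Fasn and Fads2 did. Without the filter on low values, 6 passed, the 5 sterol enzymes and Insig1. The calls on Stard4 and on all 6 fatty acid enzymes were then lost (limma adjusted p of 0.0545 to 0.0714). Under quantile normalization and median-ratio scaling 12 and 14 passed, while 55.1% and 60.1% of all calls were then rises, against 69.1%. The comparison shares the untreated Th2 libraries with that against CD4 T cells, so their opposite directions are not independent.

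**Figure D2:**
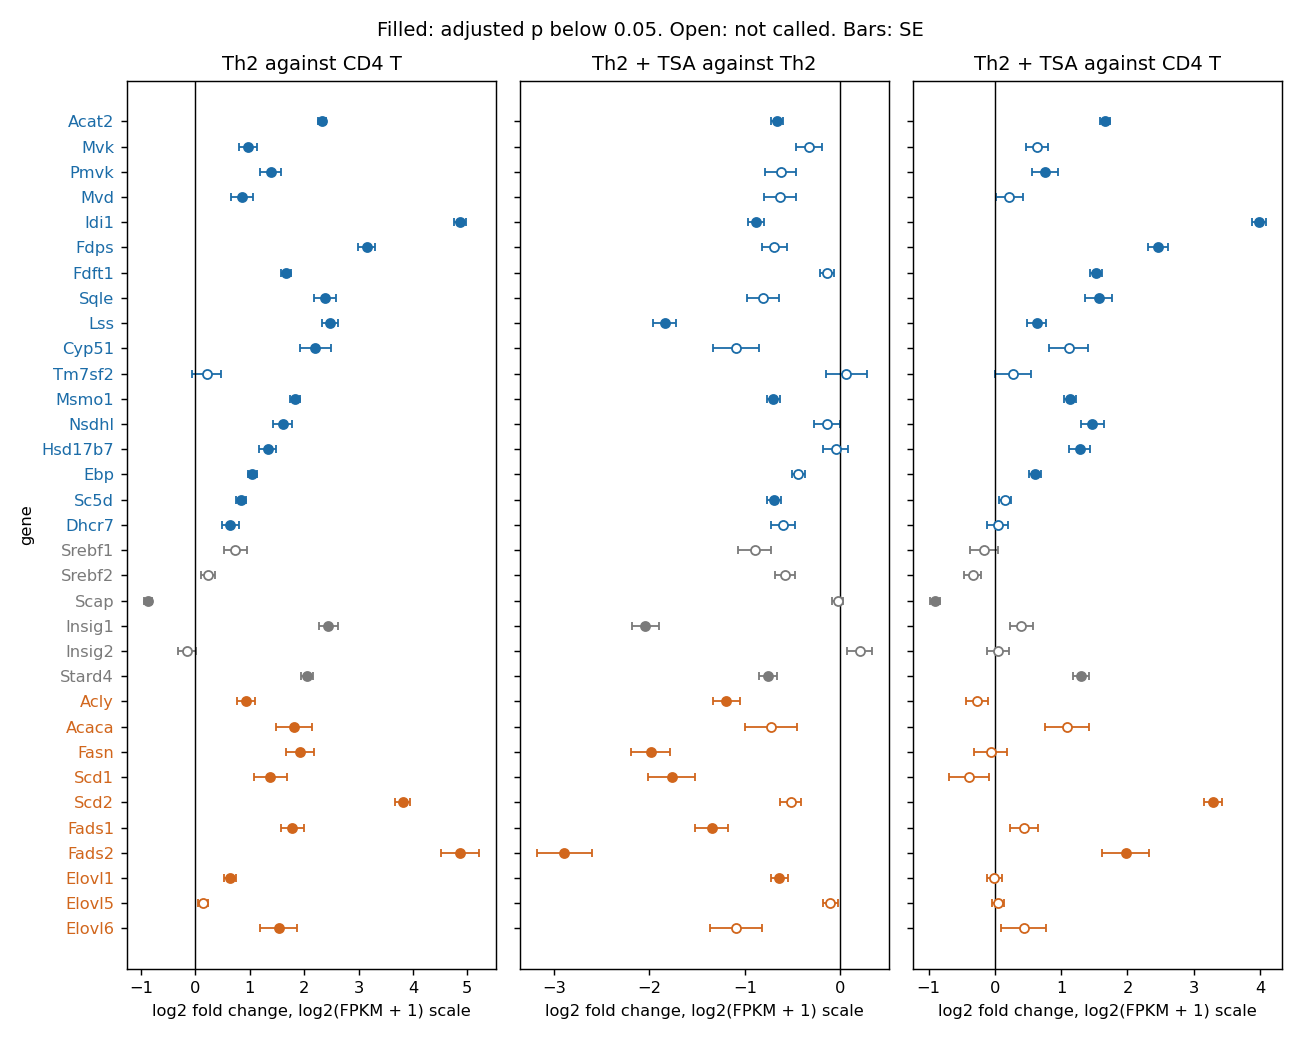
Log2 fold change with its SE on the log2(FPKM + 1) scale for each of the 33 genes in 3 comparisons; filled points passed limma at an adjusted p below 0.05. Points lie right of 0 for 31 genes in the first panel and left of 0 for 31 in the second, and in the third the fatty acid enzymes, in orange, gather near 0 apart from Acaca, Scd2 and Fads2.

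In the fatty acid branch the largest falls were in desaturation and in the synthase. Fads2 was at 81.2 and 80.9 FPKM in untreated Th2 cells and 13.1 and 7.65 with TSA, a mean of 12.8% of the untreated level (log2 fold change -2.89, SE 0.29, limma adjusted p = 0.0335). Fasn was at 89.7 and 91.5 FPKM untreated and 26.5 and 18.5 with TSA, 24.8% of untreated (-1.99, SE 0.20, limma adjusted p = 0.0340). Scd1 was at 38.8 and 28.8 FPKM untreated and 10.8 and 7.67 with TSA (-1.77, SE 0.25, limma adjusted p = 0.0442). The groups did not overlap for any of these genes, and the second TSA library was the lower in each. Acly fell from 113 and 120 FPKM to 56.2 and 45.2, and Fads1 from 25.8 and 24.3 to 10.7 and 7.98. Elovl1 had the smallest fall of the branch that passed, from 56.1 and 58.8 FPKM to 38.9 and 34.4. Acaca, Elovl6, Scd2 and Elovl5 did not pass. Scd2 was at 228 and 196 FPKM with TSA, 69.8% of untreated (limma adjusted p = 0.0707), where its paralog Scd1 was at 27.3% of untreated.

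In the sterol branch Lss stood apart. It was at 53.7 and 55.5 FPKM untreated and 16.0 and 13.2 with TSA, 26.7% of the untreated level (log2 fold change -1.84, SE 0.12, limma adjusted p = 0.0281). The other sterol enzymes that fell were Idi1 (-0.88), Msmo1 (-0.70), Sc5d (-0.69) and Acat2 (-0.67), each at 53.5% to 62.3% of untreated. Idi1 was at 32.0 and 29.8 FPKM with TSA. Cyp51, at 46.6% of untreated (limma adjusted p = 0.0767), and Sqle, at 56.6% (limma adjusted p = 0.0693), did not pass. Fdft1 and Nsdhl were at 90.6% and 91.0% of untreated, Hsd17b7 at 96.3% and Tm7sf2 at 106%. Fdft1, Sqle and Lss are consecutive steps, and their levels with TSA ran from 26.2 and 25.1 FPKM for Fdft1 through 35.8 and 27.6 for Sqle to 16.0 and 13.2 for Lss.

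Among the regulators Insig1 had the largest fall, from 69.5 and 70.7 FPKM to 18.3 and 14.4 with TSA, 23.3% of untreated (log2 fold change -2.04, SE 0.14, limma adjusted p = 0.0282). Stard4 fell from 37.2 and 39.3 FPKM to 23.6 and 21.0 (-0.75, SE 0.10, limma adjusted p = 0.0394). Srebf1 was at 24.8 and 28.7 FPKM with TSA against 44.4 and 57.5 (-0.90, limma adjusted p = 0.0663), and Srebf2 at 55.6 and 55.1 against 76.4 and 89.8 (-0.57, limma adjusted p = 0.0603). Neither passed, although the groups did not overlap. Scap was at 17.4 and 17.2 FPKM with TSA against 17.8 and 17.5, and Insig2 at 11.03 and 13.0 against 9.60 and 10.99.

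The experiments differed in the size of the TSA difference. Set against the untreated library with the same number, the level with TSA was lower in experiment 2 than in experiment 1 for 28 of the 33 genes, as for 50.7% of all genes with a value in all 4 libraries. The count was 14 of 17 for the sterol enzymes, 9 of 10 for the fatty acid enzymes and 5 of 6 for the rest. Fasn stood at 29.5% of untreated in experiment 1 and 20.2% in experiment 2, Fads2 at 16.1% and 9.45%, and Lss at 29.7% and 23.8%. The proliferation genes were lower with TSA in both libraries in 9 of 10 cases, as were 27.1% of all genes. Their median log2 fold change was -0.64, and 1 passed as lower, where 4.14% of all genes did. Ribosomal protein genes made up 17.3% and 19.0% of summed FPKM in untreated Th2 cells and 22.4% and 22.8% with TSA. The part of these in the lower levels was not tested.

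**Figure D3:**
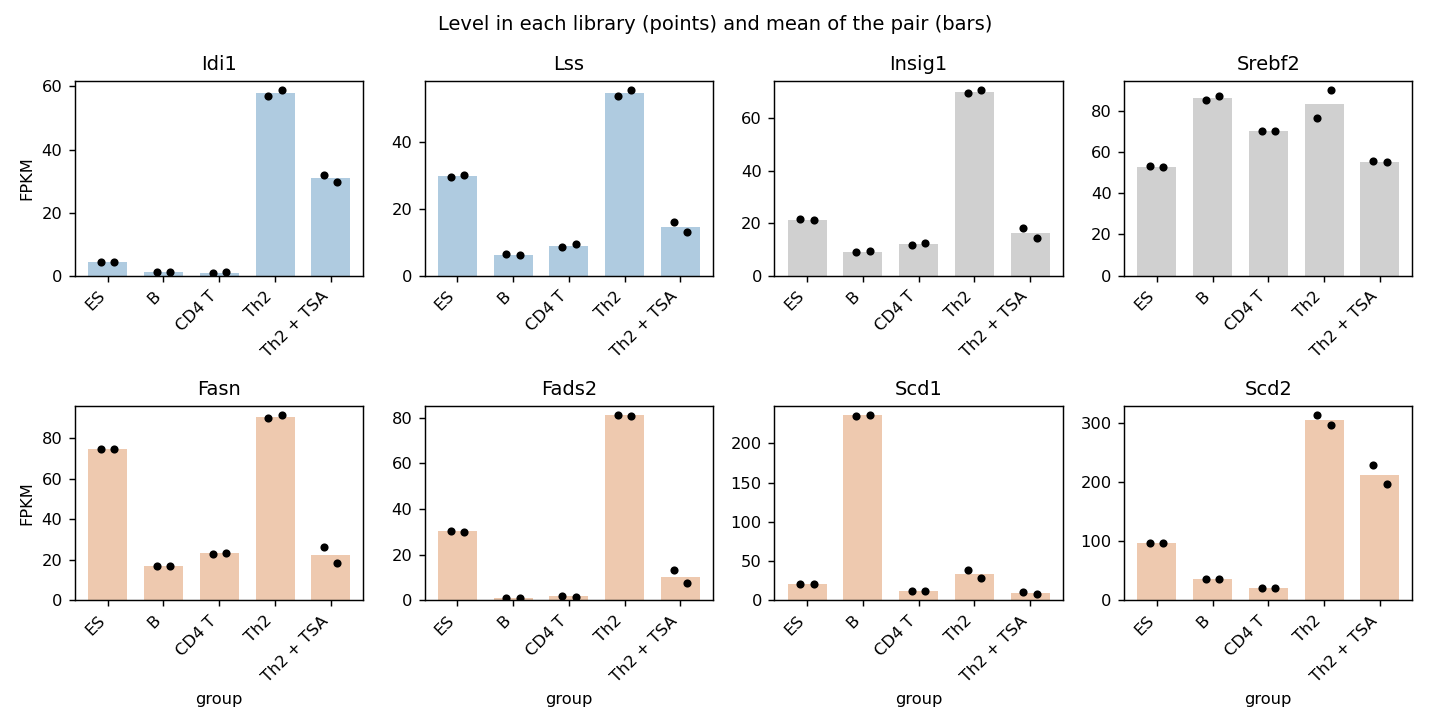
FPKM of 8 genes in each library (points) with the mean of each pair (bars), for ES, B, CD4 T, Th2 and TSA-treated Th2 cells; sterol enzymes are blue, regulators grey and fatty acid enzymes orange. With TSA, Fasn was at 26.5 and 18.5 FPKM beside 23.1 and 23.2 in CD4 T cells. Idi1 was at 32.0 and 29.8 FPKM with TSA beside 1.0 and 1.04 in CD4 T cells.

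Set against CD4 T cells, the TSA-treated cultures had more sterol enzymes raised than fatty acid enzymes; the difference between the branches was not tested. Of the 33 genes 14 were higher than in CD4 T cells and 1, Scap, was lower, where 20.2% and 36.8% of 12367 genes were. The 14 were 11 of 17 sterol enzymes, with a median log2 fold change of 1.11 over the branch, 2 of 10 fatty acid enzymes, Scd2 and Fads2, with a median of 0.24, and Stard4. Without the first TSA library 7 of 17 sterol enzymes were higher, with the calls on Pmvk, Lss, Hsd17b7 and Ebp lost, and without the second 9 of 17. The median over all genes was -0.24. Idi1 (3.98, SE 0.10, limma adjusted p = 0.00104), Scd2 (3.29, SE 0.13, limma adjusted p = 0.00196) and Fdps (2.46, SE 0.16, limma adjusted p = 0.00379) had the largest log2 fold changes. Elovl1 (-0.01, SE 0.11), Fasn (-0.06, SE 0.25), Acly (-0.27, SE 0.17) and Scd1 (-0.39, SE 0.30) did not pass, and neither did Insig1 (0.40, SE 0.17, limma adjusted p = 0.137). These values do not show that treated and resting cells are alike, and under quantile normalization Insig1, Fads1 and Acaca passed as higher. Fasn and Elovl1 changed direction under both scalings, which moved the median of all genes up by 0.22 and 0.21 and the share of rises among all calls from 35.4% to 48.6% and 47.1%. The comparison shares the CD4 T libraries with that of untreated Th2 cells.

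Branch medians put the same values side by side. The median of log2(FPKM + 1) over the sterol enzymes lay below that over the fatty acid enzymes in ES cells, by 0.47 and 0.52 in the 2 libraries. In B cells it lay 1.39 and 1.36 below, in CD4 T cells 0.60 and 0.59 and in Th2 cells 0.69 and 0.58. With TSA it lay above, by 0.47 and 0.98. Both branches rose from CD4 T to Th2 cells with the gap between them nearly the same, and by the medians the order turned in both treated libraries. By the means over members it did not turn in the first, where the difference was -0.06, and was 0.25 in the second. Summed FPKM was 759 and 784 over the sterol enzymes and 816 and 787 over the fatty acid enzymes in untreated Th2 cells, and 500 and 453 against 463 and 387 with TSA.

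**Figure D4:**
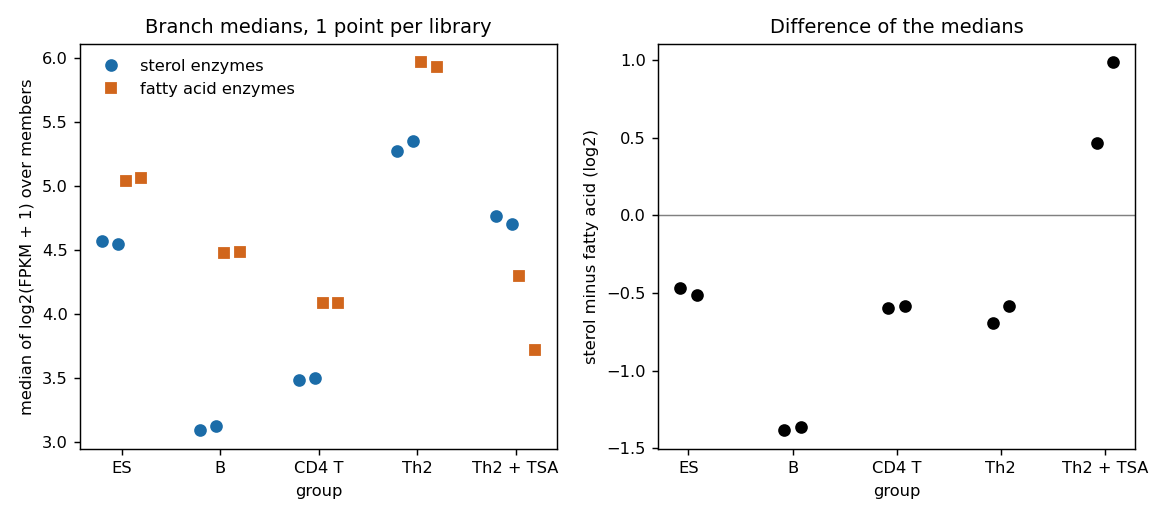
Left, median of log2(FPKM + 1) over the 17 sterol enzymes (circles) and the 10 fatty acid enzymes (squares) in each library; right, the sterol minus the fatty acid median. The difference was below 0 in the 8 libraries of the other groups and above 0, at 0.47 and 0.98, in the 2 TSA libraries.

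Th2 and ES cells, both cultured, were compared as well. Against ES cells 17 of 33 genes were higher in Th2 and 0 were lower by limma, where 19% and 43.1% of all genes were. At an unadjusted limma p below 0.05, 1 member was lower, and the share of all genes at that threshold is not given here. Idi1 (log2 fold change 3.46, limma adjusted p = 0.000456), Stard4 (2.21, limma adjusted p = 0.00153), Elovl1 (1.73, limma adjusted p = 0.00236) and Insig1 (1.67, limma adjusted p = 0.00627) were the most raised. Elovl6, at 18.6 and 14.5 FPKM in Th2 and 39.8 and 40.4 in ES cells, had the lowest log2 fold change, -1.24 (limma adjusted p = 0.0507), and passed when genes under 5 FPKM were left out. Without the first Th2 library 12 of the members were higher and without the second 10. Quantile normalization and median-ratio scaling moved the median of all genes up by 0.39 and 0.35, and the share of rises among all calls from 30.6% to 49.2% and 46.3%. Proliferation genes were higher in 2 of 10 cases and lower in 1. The ES libraries hold feeder fibroblast transcripts as given above, and their part in the ES levels was not tested.

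Other genes of the pathways, from lists drawn up for comparison, behaved unevenly. Of 13 further genes of sterol and isoprenoid synthesis, 4 fell from CD4 T to Th2 cells, not far from the 38.1% of all genes that did so. The members of this list that fell serve side branches: Pdss2 and Coq2 act in ubiquinone synthesis and Fnta and Fntb attach farnesyl groups to proteins. Coq2 had the largest of these falls, 1.64 on the log2 scale.

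Of 17 genes of sterol uptake, storage, efflux and sensing tested between CD4 T and Th2 cells, 1 rose, the lipoprotein receptor Scarb1, and 6 fell, a share near that of all genes: Lipa, Abca1, Abcg1, Nr1h3, Mylip and Cyp27a1. Cyp27a1, which makes an oxysterol, was at 19.9 and 20.2 FPKM in CD4 T and 0.03 and 0.05 in Th2 cells. Nr1h3, a nuclear receptor for oxysterols, was at 8.71 and 8.98 against 0.22 and 0.24, and Mylip, a ubiquitin ligase that is among its targets, at 33.4 and 33.5 against 3.47 and 2.72. The summed macrophage markers went from 355 to 9.13 FPKM between these groups, as given above, and their part in these falls was not tested. Lipa, the lysosomal esterase that frees cholesterol, was the 1 gene of this list that rose with TSA, from 8.43 and 6.75 FPKM to 17.9 and 20.0; 9.26% of all genes rose. Npc2, which moves cholesterol out of the lysosome, was at 73.7 and 103 FPKM untreated and 175 and 264 with TSA and did not pass (limma adjusted p = 0.0869).

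Of 23 further genes of fatty acid synthesis tested, 7 rose in Th2 against CD4 T cells and 3 fell, where 16.9% and 38.1% of all genes did. With TSA 5 fell, Slc25a1, Scd4, Mid1ip1, Mlx and Lpcat3, and 2 rose, Acacb and Elovl4, where 4.14% and 9.26% of all genes did. Slc25a1, which exports the citrate that Acly splits, was at 12.6 and 13.2 FPKM in CD4 T, 51.2 and 63.6 in Th2 and 22.6 and 23.8 with TSA. Mid1ip1, a partner of acetyl-CoA carboxylase, was at 5.91 and 6.47, then 26.7 and 25.2, then 15.0 and 14.0. The desaturase paralog Scd3 was at 0.36 and 0.32 FPKM in CD4 T, 8.32 and 6.35 in Th2 and 5.38 and 3.76 with TSA, and did not pass with TSA. Mlx, a partner of the carbohydrate-sensing factor ChREBP, fell with TSA from 35.1 and 38.7 FPKM to 21.3 and 21.6. Of 21 genes of fatty acid oxidation 4 rose and 6 fell in Th2 cells, again close to the shares over all genes, with Acadl (1.33), Etfb (1.303) and Hadh (1.26) highest. With TSA 2 rose, Acaa2, from 23.9 and 26.1 FPKM to 43.5 and 39.4, and Etfdh, from 16.7 and 16.8 to 30.2 and 26.0, with a list median of 0.09; 9.26% of all genes rose with TSA.

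Positions and sequence were then compared, on the mouse GRCm38 assembly (mm10), with GENCODE gene models. Of the 33 genes 5 lie on chromosome 19, among them 2 neighbouring pairs of desaturases. Fads2 (chr19:10062765-10101746, minus strand) and Fads1 (chr19:10182888-10196877, plus strand) are 81141 bases apart and both rose in Th2 cells and fell with TSA. Scd2 (chr19:44293674-44306864, plus strand) and Scd1 (chr19:44394455-44407879, minus strand) are 87590 bases apart; both rose in Th2 cells, and with TSA Scd1 fell and Scd2 did not pass. Some levels cannot be assigned with certainty because transcripts share sequence, and how the counting treated shared reads is not given in the sources used here. Of the 50-base words of the Fdps transcript, 77.3% also occur in the overlapping gene model Gm43738 and 40.1% in the pseudogene Gm3571. The share was 55.4% for Acaca with Gm5182, 45.9% for Acat2 with Acat3, 21.3% for Idi1 with Gm13502, 13.1% for Scap with 5830462I19Rik and 19.9% for Fdft1 with Ctsb, which overlaps it on the opposite strand.

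Promoter sequences of the members were searched for short runs of letters, whether or not a gene had passed in a comparison. RefSeq windows of 300 bases, from 250 before to 50 after each start, were matched for 26 of the 33 genes, and Fdps, Fdft1, Sqle, Stard4, Scd1, Scd2 and Fads1 had no entry. Letters were searched on both strands. The sterol regulatory element spelled TCACNCCAC was in 0 of the 26, and in 1.24% of all 32851 windows; other spellings were not searched. The NF-Y box CCAAT was in 13 of 14 sterol enzymes and 4 of 7 fatty acid enzymes, and in 41.1% of 27025 genes. The GC box GGGCGG was in 13 of 14 and 3 of 7, against 38.2% of genes, and the E-box CACGTG in 3 of 14 and 1 of 7, against 8.09%. A match of these short letters is a description and not a site in use. The 250 bases before the start are printed for the 5 matched genes with the largest TSA falls among those that passed in both comparisons, a set chosen after their values were seen. They are given 5′ to 3′ on the gene's own strand, with CCAAT or its reverse complement ATTGG in capitals, from Fads2 (chr19:10101504-10101753, minus strand), Insig1 (chr5:28071162-28071411, plus strand), Fasn (chr11:120824548-120824797, minus strand), Lss (chr10:76531355-76531604, plus strand) and Acly (chr11:100528001-100528250, minus strand) of GRCm38.p6.
Fads2: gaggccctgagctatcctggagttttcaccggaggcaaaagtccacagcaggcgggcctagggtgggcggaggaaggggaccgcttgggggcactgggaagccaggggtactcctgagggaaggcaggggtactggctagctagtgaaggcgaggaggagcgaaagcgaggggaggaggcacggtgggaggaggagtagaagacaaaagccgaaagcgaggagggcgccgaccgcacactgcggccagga
Insig1: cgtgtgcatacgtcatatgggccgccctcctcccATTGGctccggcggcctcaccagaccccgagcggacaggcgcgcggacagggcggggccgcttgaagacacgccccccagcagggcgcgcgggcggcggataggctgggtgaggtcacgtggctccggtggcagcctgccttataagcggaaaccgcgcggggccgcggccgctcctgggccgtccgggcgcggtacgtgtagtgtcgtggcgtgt
Fasn: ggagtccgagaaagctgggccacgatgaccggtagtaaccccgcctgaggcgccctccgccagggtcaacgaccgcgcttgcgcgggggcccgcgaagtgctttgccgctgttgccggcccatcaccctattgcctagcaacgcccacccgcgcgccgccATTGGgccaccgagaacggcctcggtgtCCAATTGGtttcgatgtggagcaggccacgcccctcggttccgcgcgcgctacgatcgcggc
Lss: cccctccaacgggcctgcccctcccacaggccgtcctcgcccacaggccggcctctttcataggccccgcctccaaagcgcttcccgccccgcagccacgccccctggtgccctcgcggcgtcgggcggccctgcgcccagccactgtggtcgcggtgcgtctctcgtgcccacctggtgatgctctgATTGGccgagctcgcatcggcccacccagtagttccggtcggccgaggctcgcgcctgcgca
Acly: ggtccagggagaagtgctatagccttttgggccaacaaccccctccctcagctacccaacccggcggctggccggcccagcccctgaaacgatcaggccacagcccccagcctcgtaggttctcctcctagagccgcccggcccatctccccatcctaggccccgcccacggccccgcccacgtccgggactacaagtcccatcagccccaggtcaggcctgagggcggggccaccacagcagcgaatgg
In these 250 bases Fasn carries 3 boxes, which start 90, 62 and 59 bases before the start, and the last pair overlap. Insig1 carries 1, at 216 bases before the start, and Lss 1, at 62 bases. Fads2 and Acly carry none here, although the 300-base window of Acly holds 1 after the start, outside the printed bases. Fads2 had the largest fall of all members.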

How the data were processed

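RNA from 10 libraries of 5 groups was sequenced with the TruSeq RNA v2 kit, per the labels' protocols. Per the submitters' processing notes, the tools were Bowtie 0.12.8, TopHat 1.3.2 and Cufflinks 2.0.2 with the mm10 build; the sources used here do not give their settings, the use of strand or the handling of multiply matching reads. The deposited values are FPKM computed by the authors, with 21035 rows in each library. No depth is known, so precision comes only from the spread between libraries.

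For each symbol the highest row was taken. Libraries of ES, B and CD4 T cells were averaged within their group, which left 7 samples in 1 fit. Values were fitted as log2(FPKM + 1) with limma 3.58.1 in R 4.3.3, with a prior spread that depends on the mean; the tests were two-sided, with Benjamini-Hochberg adjustment over all genes of at least 1 FPKM in 2 libraries, and calls were made at an adjusted p below 0.05. In comparisons across kinds of file, genes at 0 in all files of 1 kind were left out of the adjustment. All 33 members passed the filter. The procedure was tested on simulated data. Summaries were made in Python 3.11.15.

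The members and the lists of other genes were chosen with earlier results of these data known. All members are named. Of the other lists, the 3 genes with the largest absolute change among those called in Th2 against CD4 T and in TSA against Th2 are named; further genes named in counts were chosen after their values were seen. Some genes of these lists are not reported here. The rule for printing promoters asked for a match to the sterol regulatory element; as it found none, the printed set was chosen afterwards. A comparison of protein sequences between paralogs was planned and not run. Alternatives were another pseudocount (0.1), no filter or a filter at 5 FPKM, other scalings, sums or means of rows, all 10 libraries as separate samples, a replicate block, limma without the trend and leaving out each library.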

Additional observations from a re-analysis of the deposited data

How the results depend on the processing

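TSA against Th2 rests on 2 libraries a side, and the comparisons with CD4 T and ES cells on 2 against 1 averaged sample. Leaving out 1 library gave 12 to 13 members higher and 0 lower in Th2 against CD4 T cells, with branch medians of 1.53 to 1.61 (sterol) and 1.53 to 1.76 (fatty acid), and 942 to 1061 genes higher and 2246 to 2382 lower. For TSA against Th2 it gave 0 to 2 members lower, 0 to 259 genes higher and 0 to 14 lower, with a sterol median of -0.70 to -0.52. For TSA against CD4 T cells the sterol median was 0.86 to 1.17. For Th2 against ES cells it gave 10 to 12 members higher, 1432 to 1545 genes higher and 3254 to 3417 lower. For this and the other alternatives, the fatty acid medians of the 2 TSA comparisons are not given here. That branch scattered more between the 2 TSA libraries, with medians of log2(FPKM + 1) of 4.30 and 3.72, against 4.76 and 4.71 for sterol.

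With a pseudocount of 0.1 the medians in Th2 against CD4 T were 1.68 (sterol) and 1.80 (fatty acid), and the sterol median of TSA against CD4 T was 1.17. Without the filter TSA against Th2 gave 6 members lower, 570 genes higher and 201 lower. Quantile normalization gave 3236 genes higher in Th2 against CD4 T with medians of 1.885 (sterol) and 1.931 (fatty acid), a sterol median of -0.51 for TSA against Th2 and 1.44 for TSA against CD4 T, and 3711 genes higher in Th2 against ES. Median-ratio scaling gave 1.961 and 1.996, -0.713 and 1.388 for the same medians, 2 members higher in B against ES and 1 in CD4 T against B. With all 10 libraries as separate samples 3369 genes were higher in Th2 against CD4 T. TSA against Th2 then had 26 members lower, 3902 genes higher and 2872 lower. TSA against CD4 T had 3829 genes higher and 3 members lower, and Th2 against ES had 1 member lower, as with the filter at 5 FPKM. With a log2 difference of at least 2, CD4 T against ES had 1389 genes higher and 1531 lower (members 0 and 3), B against ES 1220 and 1727 (members lower 8), and CD4 T against B 331 and 220 (members higher 0). The sterol minus fatty acid difference with means over members was -0.74 in ES, -0.73 in B, -0.40 in CD4 T, -0.53 in Th2 and 0.092 with TSA. With sums of rows it was -0.69 in ES and -0.88 in Th2, and with a pseudocount of 0.1 it was -1.47 in B and -0.63 in CD4 T. The cause of these shifts was not tested.

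Libraries of Th2 with the same number deviated together (r = 0.577 over 12907 genes). There are only 2 such pairs and the labels give only a number, so the fit with a replicate block is an alternative: it gave 27 members higher in Th2 against CD4 T, 14 lower in TSA against Th2, 2 lower in TSA against CD4 T and 1 lower in Th2 against ES. In limma with the block, Srebf1 gained a call in Th2 against CD4 T (adjusted p = 0.0211) and Dhcr7 lost its own (0.0802). In TSA against Th2, Pmvk, Ebp, Srebf1 and Elovl6 gained calls (adjusted p of 0.0485 to 0.0496) and Stard4, Acly and Elovl1 lost theirs (0.0539 to 0.0592). In TSA against CD4 T, Cyp51, Acaca and Scd1 gained calls (0.0228 to 0.0396) and Lss lost its own (0.0568). In Th2 against ES, Elovl6 gained a call (0.0152) and Fads2 lost its own (0.0531).

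Directions reversed only for genes that had not passed the test in that comparison. Under quantile normalization these were Insig2 (0.30) and Etfdh (0.26) in Th2 against CD4 T, Scap (0.017), Cyp27a1 (0) and Nr1h3 (-0.075) in TSA against Th2, and Srebf1 (0.11), Fasn (0.26), Scd1 (0.016) and Elovl1 (0.195) in TSA against CD4 T. Under median-ratio scaling they were Insig2 (0.195) and Etfdh (0.28), Tm7sf2 (-0.008), and Srebf1 (0.12), Acly (0.021), Fasn (0.22) and Elovl1 (0.28). With sums and means of rows Elovl1 was at 0.196 and 0.192 in TSA against CD4 T. Leaving out 1 library at a time, log2 fold changes of TSA against Th2 ranged from -0.135 to 0.269 for Tm7sf2, -0.159 to 0.071 for Hsd17b7, -0.28 to 0.007 for Nsdhl and -0.012 to 0.193 for Hadh. Those of TSA against CD4 T ranged from -0.077 to 0.16 for Dhcr7, -0.058 to 0.165 for Insig2, -0.312 to 0.186 for Fasn and -0.095 to 0.08 for Elovl1.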
